A study of Sus scrofa with 5 samples.

Results

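The proteasome genes and the genes of antigen processing were followed across 5 single-cell RNA libraries of pig skin. Members were the genes whose symbol starts with PSMA to PSMG and a number, together with TAP1, TAP2, B2M, CD74, HLA-DRA, NLRC5 and CIITA. They came to 52 of 20286 genes, 48 by the symbol in the deposited files and 4 (CD74, TAP2, PSMA2 and PSMD9) through a symbol table. Of these, 44 code for parts, activators, inhibitors or assembly factors of the proteasome and 7 belong to antigen processing. The remaining gene, PSMC3IP, matches the pattern by name but codes for a meiotic recombination protein. Its level lay between 2.09 and 2.7 CPM (counts per 1000000 UMIs, the unique molecular identifiers that mark single captured RNA molecules) and it is left out of all counts below except those over all 52 members. TAPBP was also named by the rule, but the symbol table's identifier for it carries another gene's symbol in the files, and no value is given for it. PSMB5, PSMB6, PSMG1 and PSMG2 were matched to no row and are not analysed here.

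Pigs received wounds through the full thickness of the skin, each covered by a split-thickness skin graft, a sheet of epidermis with part of the dermis. Grafts stayed untreated or were dressed with a hydrogel that carries an inhibitor of focal adhesion kinase (FAK), an enzyme that relays mechanical signals from the matrix into the cell, with dressings renewed every other day. The 5 groups were untreated and inhibitor grafts, each taken at day 7 or at day 90, and skin that had neither wound nor graft. Each group is 1 library of freshly dissociated cells. The series describes multiple pigs, but the number of animals in a library, the breed, sex and age are not given in the sources used here, and whether the untreated grafts had an empty gel is not given either.

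The proteasome degrades proteins tagged with ubiquitin. Its barrel, the 20S core, is built of alpha and beta rings, and 3 of the beta subunits cut protein chains (PSMB5, PSMB6 and PSMB7). Interferons, above all interferon gamma, induce the alternative catalytic subunits PSMB8, PSMB9 and PSMB10, which take the places of PSMB5, PSMB6 and PSMB7 in newly built cores and make the immunoproteasome. The core is opened by caps, either the 19S regulator, which recognises and unfolds ubiquitin-tagged proteins, or PA28, a ring of PSME1 and PSME2 that interferon also induces. Peptides made this way are carried into the endoplasmic reticulum by the transporter TAP1-TAP2 and loaded on MHC class I molecules, whose light chain is B2M. MHC class II molecules such as HLA-DRA, escorted by the invariant chain CD74, present peptides from endocytosed proteins and are typical of macrophages, dendritic cells and B cells. Skin endothelial cells of pigs are also known to carry class II.

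After filtering, 26842 of 32554 barcodes were kept, 7566, 8653, 5388, 3693 and 1542 in the order untreated day 7, inhibitor day 7, untreated day 90, inhibitor day 90 and unwounded skin. All lists of 5 values below follow this order. Their summed UMIs were fewest in unwounded skin (17744626) and most at day 90 without treatment (73498318), so the smallest library had the widest intervals. Unwounded skin shared 133 deposited barcodes with the untreated and 152 with the inhibitor graft at day 90, which is 7.06% and 8.07% of its barcodes, and the day 90 grafts shared 70. Other pairs of libraries shared 3 to 32. Without the shared barcodes, the members past 1.5-fold between the day 90 grafts were the same 3. The largest move of a member's log2 ratio, between the day 90 grafts or in any graft against unwounded skin, was 0.13. Against unwounded skin, the members past 1.5-fold went from 20 to 22 in the inhibitor graft at day 7 and from 5 to 4 in the untreated graft at day 90, and were as many as before in the other grafts. With 1 library per group there is no spread between replicates and no test, and all intervals are 95% intervals that cover counting error only. A gene is said to have risen or fallen where its CPM ratio reached 1.5-fold in either direction and its mean over the libraries compared was at least 20 CPM. This is a rule of size.

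At day 7, the inhibitor graft had more RNA of 4 of the 5 interferon-inducible proteasome genes than the untreated graft. PSMB9, the inducible counterpart of PSMB6, stood at 103, 258, 67.2, 104 and 87.7 CPM. PSMB8, the counterpart of PSMB5, stood at 125, 251, 88.6, 126 and 109 CPM. Both were highest in the inhibitor graft at day 7, by a wide margin over the other 4 libraries. PSMB10, the counterpart of PSMB7, stood at 45.3, 84.4, 46.6, 49.9 and 38.5 CPM, with the same library on top. PSMB9 rose 2.5-fold (2.43 to 2.57), PSMB8 2.01-fold (1.96 to 2.06) and PSMB10 1.86-fold (1.78 to 1.95) with the inhibitor at day 7. Of the PA28 genes, PSME2 was at 94.4, 176, 75.3, 83 and 84.2 CPM and rose 1.87-fold (1.81 to 1.92). PSME1 was at 63.7, 82.8, 23.2, 32.3 and 60.5 CPM, a ratio of 1.3-fold (1.25 to 1.35) at day 7 that stayed under the rule. PSME1 and the gene EMC9 overlap in the RefSeq annotation of Sscrofa11.1, so their UMIs could be mixed; EMC9 itself was at 28.3, 26.3, 35.2, 33.8 and 38.1 CPM, which is no higher with the inhibitor at day 7.

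**Figure D1:**
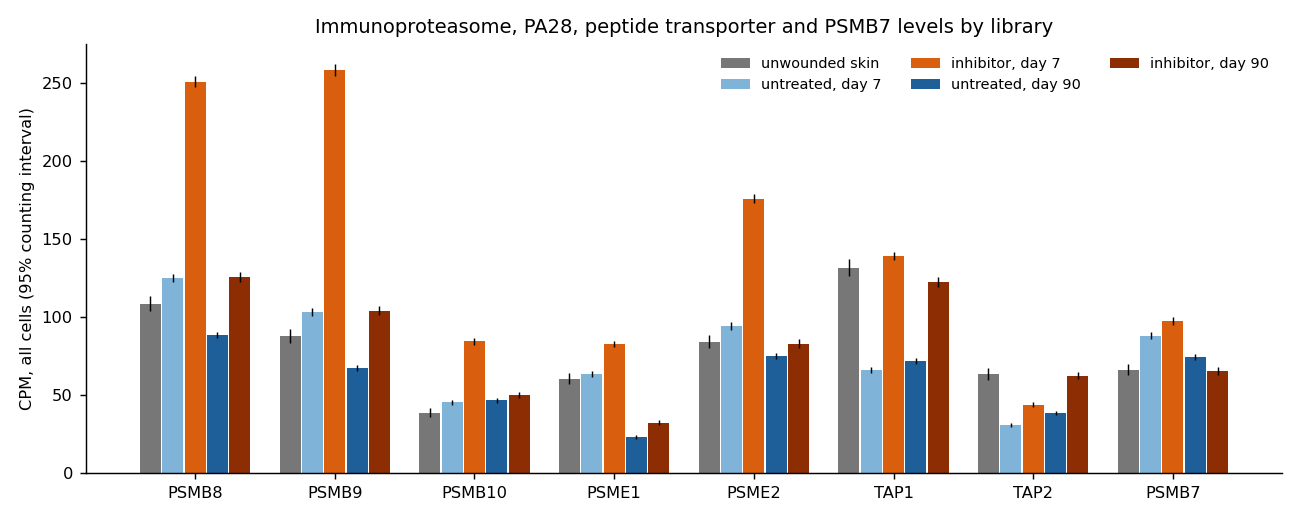
CPM over all kept cells of each library for the immunoproteasome genes PSMB8, PSMB9 and PSMB10, the PA28 genes PSME1 and PSME2, the transporter genes TAP1 and TAP2, and PSMB7, with bars grouped by gene, colours for the 5 libraries and lines for 95% counting intervals. The inhibitor graft at day 7 is highest for the first 5 genes, while TAP2 is highest in unwounded skin and the inhibitor graft at day 90, and PSMB7 varies least of the 8.

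The constitutive proteasome did not rise by that measure. Of all 52 members 43 passed the filter on low values in the day 7 comparison, and 5 were higher and 0 lower. Of the 39 other proteasome members, 33 passed and 0 of them reached 1.5-fold in either direction. Over all 5226 genes that passed, 2.28% were called higher and 3.98% lower, so the 4 of 5 inducible genes are read against a background of 2.28%. The 5 inducible genes had a median log2 ratio of 0.90, the 33 others 0.20, and all genes tested -0.03. Of those 33, 30 had a log2 ratio above 0, and their range was -0.20 to 0.55. The 12 measured constitutive 20S genes all lay above 0, with a median of 0.32, and the 18 genes of the 19S regulator that passed had a median of 0.18.

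PSMB7, the constitutive catalytic subunit that PSMB10 replaces, was at 88, 97.6, 74.5, 65.4 and 66.3 CPM, a ratio of 1.11-fold (1.07 to 1.15) at day 7. The highest of the other members were PSMA2, a subunit of the alpha ring that gates the core, at 232, 339.9, 156, 148 and 128 CPM with a log2 ratio of 0.55 at day 7, PSMD14, the 19S enzyme that removes ubiquitin chains, at 0.48, and PSMB2, a non-catalytic beta subunit, at 0.42. The lowest were PSMD2, the large 19S scaffold subunit, at -0.20, the nuclear core activator PSME4 at -0.17 and PSME3, the nuclear PA28 subunit, at -0.15. None of these 6 reached 1.5-fold. PSMF1, an inhibitor of the 20S core, was under the filter in this comparison, as were PSMD5 and PSMD10, assembly chaperones of the 19S base, and PSMG3, a chaperone of the core. PSMA8 and PSMB11, core subunits restricted to testis and thymus, had 0 UMIs in every library.

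**Figure D2:**
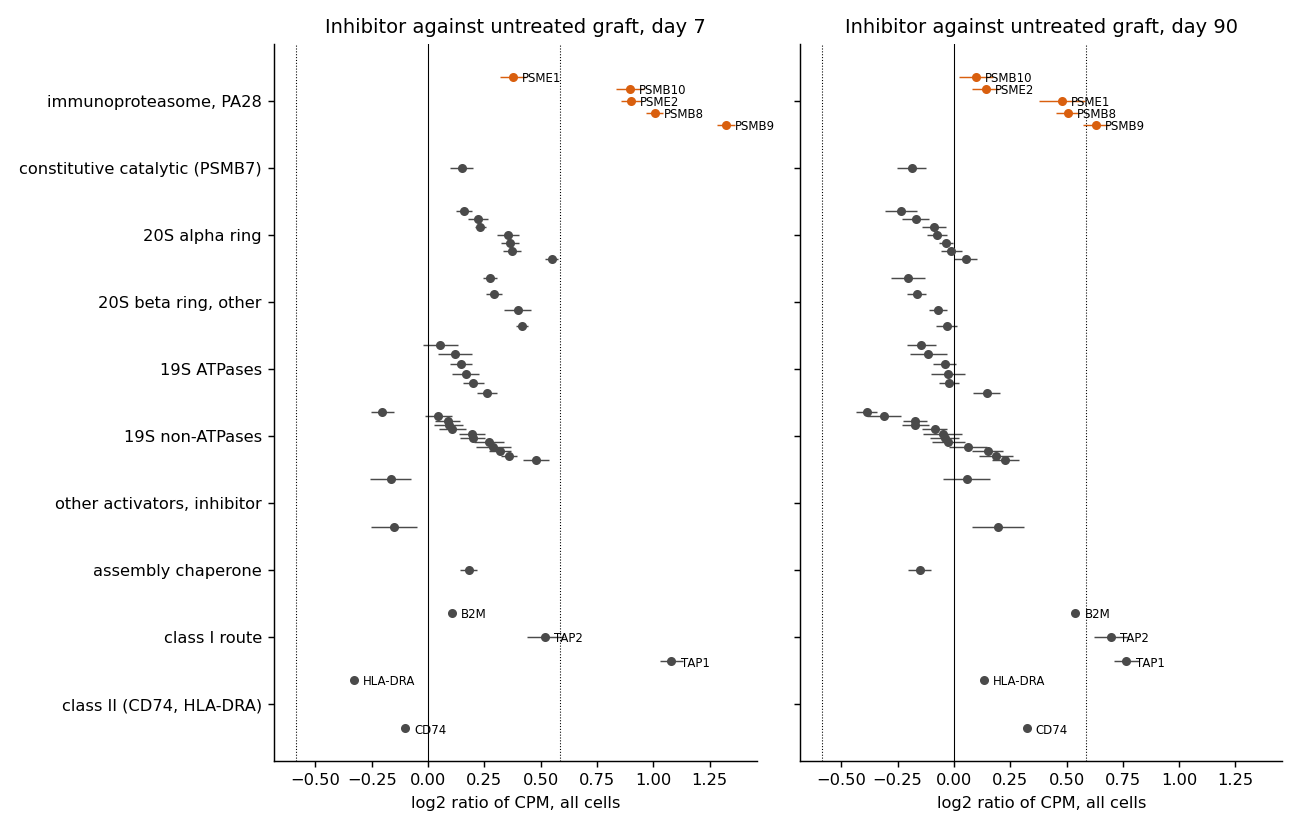
Log2 ratio of CPM, inhibitor against untreated graft over all cells, at day 7 (left) and day 90 (right), for each member that passed the filter, grouped by role on the vertical axis, with 95% counting intervals and dotted lines at 1.5-fold. At day 7 PSMB8, PSMB9, PSMB10, PSME2 and TAP1 lie beyond the upper line and every constitutive gene lies between the lines; at day 90 TAP1, TAP2 and PSMB9 do, and most constitutive genes lie just under 0.

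Of the genes that move and load the peptides, TAP1 was at 65.8, 139, 71.9, 122 and 132 CPM and rose 2.12-fold (2.04 to 2.19) at day 7. TAP2, its partner, was at 30.5, 43.7, 38.4, 62.3 and 63.6 CPM, a ratio of 1.43-fold (1.36 to 1.52) that stayed under 1.5-fold. The untreated graft at day 7 was the lowest library for both, and for TAP2 the inhibitor graft at day 7 stayed below unwounded skin. B2M was at 2899, 3118, 3317, 4823 and 4992 CPM, 1.08-fold at day 7; RefSeq holds 2 copies of B2M in this assembly, so its UMIs could be split and its level is uncertain. NLRC5, the transactivator of class I genes, was at 10.6, 14.3, 9.46, 16.9 and 16.8 CPM and below the filter. TAP2, PSMB8, TAP1 and PSMB9 lie next to each other in that order in the RefSeq annotation of Sscrofa11.1, inside the MHC region. PSMB10, PSME1 and PSME2 lie elsewhere. TAP2 inside the region and PSME1 outside it stayed under 1.5-fold at day 7, and whether location plays a part was not tested.

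Other genes of the pathway were read from lists drawn up with earlier results of these data known. Among the genes of class I loading, peptide trimming and their regulators, the transcription factor IRF1, which turns on inducible proteasome genes in response to interferon, was past 1.5-fold higher at day 7 (224, 582, 265, 486 and 714 CPM). Of the 17 measured genes of ubiquitin and proteasome supply, 15 passed and 0 were higher or lower. CXCL9, CXCL10 and GBP2, which interferon gamma induces, were also past 1.5-fold higher. These genes are named because they passed the rule, and no count over their lists is given. IFNG itself, interferon gamma, gave 7, 65, 1, 1 and 1 UMIs, nearly all of them in T or NK-like cells at day 7 (7 and 62). T or NK-like cells made up 12.7% of the untreated and 21.9% of the inhibitor graft at day 7, and they had the highest PSMB8 level of all classes. The part of this shift in the values over all cells was not tested, and values within classes are given next.

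The immunoproteasome was set against the constitutive core within each library by dividing the UMIs of PSMB8, PSMB9 and PSMB10 by those of PSMB7. The labels give a 3-prime kit that counts 1 UMI per captured end of a molecule, so gene length does not scale the counts, but capture can differ between genes, and only differences of this ratio between libraries and classes are read. Over all cells the ratio was 3.11 (3.02 to 3.2), 6.09 (5.93 to 6.25), 2.72 (2.63 to 2.8), 4.27 (4.11 to 4.45) and 3.54 (3.32 to 3.78). It was highest in the inhibitor graft at day 7 and lowest in the untreated graft at day 90, and the 5 intervals did not overlap. Per UMI of 12 constitutive 20S genes, a denominator chosen after seeing the data, the untreated grafts at day 7 (0.129) and day 90 (0.131) were lowest with overlapping intervals, and the inhibitor graft at day 7 (0.224) was again highest. The log2 change of the ratio to PSMB7 with the inhibitor was 0.97 (0.91 to 1.03) at day 7, that is 1.96-fold, and 0.65 (0.58 to 0.73) at day 90, 1.57-fold. With the 12 genes as denominator the changes were 0.80 and 0.55.

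Cells were grouped in 29 clusters without the members among the clustering genes, and 21 clusters took the name of a cell class from marker lists. In each class the markers stood out from the rest of the cells, for example 12 of 12 fibroblast markers in fibroblast-like cells, all 12 pericyte and smooth muscle markers in pericyte or smooth muscle-like cells (called mural-like below) and 11 of 11 in endothelial-like cells. The naming rule itself asked for raised markers, so these counts follow largely from it and are no separate check of the names. Classes with at least 50 cells in a library are reported, and 985 and 779 fibroblast-like, 1605 and 2255 mural-like and 1375 and 1128 endothelial-like cells came from the untreated and inhibitor grafts at day 7. The 8 unnamed clusters held 3457 cells.

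In mural-like cells, the contractile cells that wrap vessels, the 5 inducible genes rose at day 7, PSMB9 by most. PSMB9 was at 52.5, 309, 67.5, 74 and 42.7 CPM in them, PSMB8 at 77.6, 297, 135, 157 and 88.5 CPM and PSMB10 at 18.4, 80.7, 31.7, 30.0 and 16.3 CPM. The inhibitor graft at day 7 was the highest library for all 3 genes, above the next by a wide margin. In this class PSMB9 rose 5.88-fold (5.4 to 6.41), PSMB10 4.38-fold (3.78 to 5.1), PSMB8 3.83-fold (3.56 to 4.12), TAP1 3.63-fold (3.29 to 4), PSME2 3.35-fold (3.07 to 3.67) and PSME1 1.82-fold (1.65 to 2.01) at day 7. All 5 inducible genes passed 1.5-fold, where 2.26% of genes in this class were higher and 5.41% lower. PSMB7, at 79.9, 89.6, 77.6, 62.1 and 61 CPM, gave 1.12-fold (1.03 to 1.22). The lowest members were PSMD2 at 0.821-fold (0.76 to 0.887), PSMD3, another 19S subunit, at 0.923-fold and PSME4 at 0.94-fold.

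The cluster that held most mural-like cells of the inhibitor graft at day 7, cluster 14, gave 1246 of its 2255 cells, against 661 of 1605 in the untreated graft and 56 of 965 in the untreated graft at day 90. CXCL9 and CXCL10, chemokine genes that interferon gamma induces, were among the 10 leading genes of this cluster, and CXCL9 and CXCL11 led endothelial-like cluster 6. Within cluster 14 PSMB9 went from 75.6 to 454 CPM between the day 7 grafts, 6-fold. In cluster 13 of the same class it went from 36.8 to 178 CPM, 4.84-fold, and in cluster 16 the ratio was 3.12-fold. PSMB9 was thus higher with the inhibitor in each of these 3 clusters.

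Fibroblast-like cells, which build the dermal matrix, had lower PSMB8 and PSMB9 than mural-like and endothelial-like cells in every library. PSMB9 was at 26.6, 120.4, 5.06, 8.57 and 4.83 CPM, PSMB8 at 31.4, 101, 7.87, 14.3 and 9.34 CPM and TAP1 at 29.8, 89.9, 15.9, 19 and 17.1 CPM. The day 90 grafts and unwounded skin were low for all 3 genes and the day 7 grafts were higher, most of all with the inhibitor. At day 7 PSMB9 rose 4.52-fold (3.97 to 5.16), PSMB8 3.22-fold (2.85 to 3.66) and TAP1 3.01-fold (2.65 to 3.43), with 4 of 5 inducible genes past 1.5-fold against 2.27% of genes higher and 3.07% lower in this class. PSMB7 did not differ by more than its counting error, at 81.8 and 80.7 CPM. PSMA2 was the 1 constitutive 20S gene past 1.5-fold, with 1.51-fold (1.42 to 1.62), and it was also the 1 such gene in mural-like cells, with 1.7-fold (1.62 to 1.78). The lowest members were PSMD2 at 0.813-fold (0.732 to 0.902), PSME4 at 0.861-fold and PSMC1, an ATPase of the 19S base, at 0.946-fold. Different clusters held most of the class, cluster 15 at day 7 (714 of 985 and 633 of 779 cells) and cluster 25 in the untreated graft at day 90 (1024 of 1653 cells). Within cluster 15 PSMB9 went from 30.6 to 131 CPM, 4.26-fold, and within cluster 1 the ratio was 4.01-fold. Cluster 0, unnamed and led by IL11 and MMP13, gave 18.6 and 58.7 CPM.

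Endothelial-like cells already had a high inducible level without treatment. PSMB9 stood at 199.6, 419, 172, 179.8 and 171 CPM and PSMB8 at 182, 298, 194, 192 and 196 CPM, so that unwounded skin lay close to the untreated grafts of both days. PSMB9 rose 2.1-fold (1.99 to 2.21), PSMB10 2.04-fold (1.85 to 2.25), TAP1 1.94-fold (1.83 to 2.07), PSME2 1.8-fold (1.68 to 1.92) and PSMB8 1.64-fold (1.55 to 1.73) at day 7, against 1.45% of genes higher and 4.66% lower. The 5 genes' median log2 ratio was 0.85 here, 1.15 in fibroblast-like and 1.94 in mural-like cells. Of the 12 constitutive 20S genes 0 passed 1.5-fold, and the lowest members were PSMD2 at 0.826-fold (0.754 to 0.905), PSME3 and PSMC1. Cluster 6 held 777 of 1375 and 817 of 1128 endothelial-like cells at day 7 and 54 of 1221, 15 of 1292 and 3 of 527 in the other libraries; within it PSMB9 went from 239 to 508 CPM, 2.12-fold, and in clusters 8 and 19 the ratios were 1.48-fold and 1.97-fold. Lymphatic endothelial-like cells, with 84 and 59 cells at day 7, gave 90.2, 522, 105 and 143 CPM of PSMB9 in the 4 grafts, a rise of 5.79-fold (4.31 to 7.91) at day 7. TAP1 rose 5.26-fold (3.31 to 8.74) there, and 4 of the 5 inducible genes passed, against 9.23% of genes higher and 12% lower.

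Keratinocyte-like cells had PSMB9 at 122, 309, 8.89 and 5.47 CPM in the untreated and inhibitor grafts at day 7, the inhibitor graft at day 90 and unwounded skin, and PSMB8 at 82.5, 167, 12.6 and 3.28 CPM. The untreated graft at day 90 had only 29 such cells and is left out. Both day 7 grafts were far above unwounded skin, where PSMB9 was low as in fibroblast-like cells. Between the day 7 grafts PSMB9 rose 2.53-fold (2.33 to 2.75), PSMB8 2.02-fold (1.82 to 2.25) and TAP1 1.79-fold (1.61 to 1.99), with 4 of 5 inducible genes past 1.5-fold against 3.81% of genes higher and 5% lower. PSME1 differed little, with 102 and 99.1 CPM. Apart from the row named CD74, which is uncertain and given no direction, PSMD2 and PSMC2, a 19S ATPase, were the lowest members, at 0.84-fold and 0.923-fold.

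T or NK-like cells had the highest PSMB8, 578, 790.4, 508 and 402 CPM in the 4 grafts, and PSMB9 at 282, 376, 281 and 224 CPM. Here the day 7 ratios were small, 1.33-fold (1.22 to 1.45) for PSMB9 and 1.37-fold (1.29 to 1.45) for PSMB8, and of the 5 inducible genes PSME2 alone rose, 1.63-fold (1.49 to 1.79), against 2.81% of genes higher and 3.75% lower. Of their clusters, 11, 17 and 18 gave PSMB9 ratios of 1.53, 1.2 and 1.3. HLA-DRA was the highest member by ratio, as given below, and PSME3, PSMD9, an assembly chaperone of the 19S base, and PSMD2 were the lowest, at 0.71-fold, 0.912-fold and 0.919-fold.

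Myeloid-like cells had PSMB9 at 116, 258, 132 and 128 CPM and TAP1 at 29.7, 98.4, 71 and 66.3 CPM in the 4 grafts. TAP1 rose 3.32-fold (2.72 to 4.05), PSMB9 2.23-fold (2 to 2.48) and TAP2 1.88-fold (1.47 to 2.41) at day 7. Of the 4 grafts, the untreated one at day 7 was lowest for PSMB9 and TAP1. The background in this class was 5.66% higher and 6.2% lower, with 4 of the 5 inducible genes past 1.5-fold. Mast-like cells, which release histamine and proteases, went from 28.5 to 175 CPM of PSMB9, a rise of 6.13-fold (4.59 to 8.31), with all 5 inducible genes higher against 7.64% of genes higher and 4.82% lower. In B or plasma-like cells, 53 and 70 in number, TAP1 rose 4.03-fold (1.95 to 9.36) and PSMB9 2.3-fold (1.59 to 3.41), but 25.9% of all genes were higher and 3.65% lower in that comparison, so 4 of 5 stands out less from its background. Markers of T or NK cells and of fibroblasts were also higher in those cells, as given below. PSMD1, PSMC2 and PSMD2 were lowest in myeloid-like cells, HLA-DRA, PSME4 and PSMC1 in mast-like, PSMD1, PSMC6 and PSMB7 in B or plasma-like, and PSME3, PSMD10 and PSMD8 in lymphatic endothelial-like cells, and of these PSME3 and PSMD10 in lymphatic endothelial-like and HLA-DRA in mast-like cells were past 1.5-fold.

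The ratio of immunoproteasome to PSMB7 UMIs differed widely between classes. In the untreated graft at day 7 it was 1.08 in fibroblast-like, 1.86 in mural-like, 2.06 in keratinocyte-like, 2.11 in lymphatic endothelial-like, 2.35 in mast-like, 3.27 in B or plasma-like, 4.26 in myeloid-like, 5.15 in endothelial-like and 11.9 in T or NK-like cells. The counting intervals of neighbours in this order overlapped from mural-like up to myeloid-like cells, while fibroblast-like cells lay below, and endothelial-like and then T or NK-like cells above, without overlap. With the inhibitor at day 7 the ratios were 3.56, 7.66, 3.86, 6.93, 7.35, 7.56, 7.8, 8.92 and 14.2 in the same order of classes. The lowest and the highest class lay closer together with the inhibitor than without it.

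**Figure D3:**
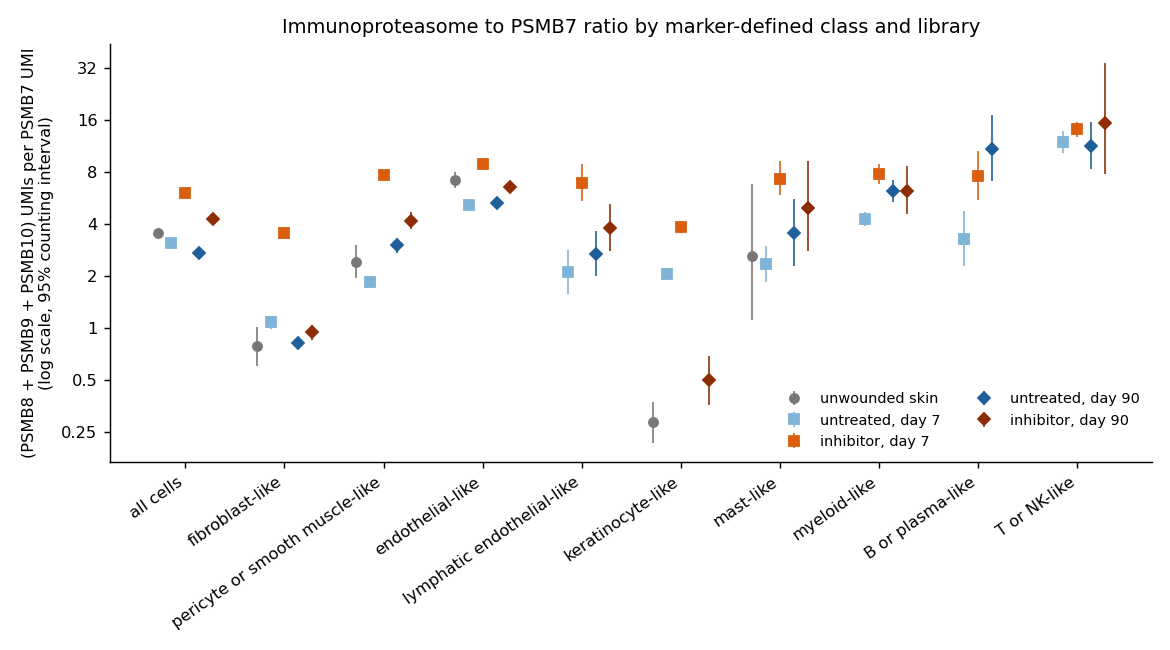
UMIs of PSMB8, PSMB9 and PSMB10 per PSMB7 UMI (log scale) over all cells and in each class (mural-like cells under their full name) with at least 50 cells in the library, with 95% counting intervals. The inhibitor graft at day 7 is the highest library in fibroblast-like, mural-like, endothelial-like, lymphatic endothelial-like, keratinocyte-like, mast-like and myeloid-like cells. Per UMI of the 12 constitutive 20S genes, not drawn, the order turns in 2 of these classes. In B or plasma-like cells the untreated graft at day 90 is highest, at 10.8 (7.12 to 17.2) against 7.56 (5.52 to 10.6) in the inhibitor graft at day 7. In T or NK-like cells the 4 grafts overlap, and keratinocyte-like cells of unwounded skin are the lowest point.

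Per UMI of the 12 constitutive 20S genes, unwounded skin was highest in endothelial-like cells, with 0.314 against 0.305 in the inhibitor graft at day 7, and the day 90 grafts were highest in myeloid-like cells, with 0.278 in both against 0.261. The counting intervals overlapped in both cases. In B or plasma-like cells the untreated graft at day 90 was highest by this measure. It had 0.447 (0.384 to 0.518) on 58 cells, against 0.299 (0.264 to 0.338) on 70 cells in the inhibitor graft at day 7.

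On the log2 scale the day 7 change of the ratio to PSMB7 was 2.04 (1.90 to 2.18) in mural-like, 1.72 (1.54 to 1.90) in fibroblast-like, 1.72 (1.16 to 2.27) in lymphatic endothelial-like and 1.64 (1.16 to 2.13) in mast-like cells. It was 1.21 (0.49 to 1.92) in B or plasma-like, 0.90 (0.74 to 1.07) in keratinocyte-like, 0.87 (0.63 to 1.11) in myeloid-like and 0.79 (0.65 to 0.93) in endothelial-like cells. In T or NK-like cells it was 0.25 (-0.01 to 0.50), an interval that includes 0. Every class lay above 0, and differences between classes were not tested, since each rests on 1 library per group. The fibroblast-like value depends on which clusters are counted in the class, from 0.97 with each library clustered alone to 1.94 with doublets kept. With each class weighted equally the change over all cells was 1, close to the 0.97 of the cells as captured.

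Markers of T and NK cells were also higher with the inhibitor at day 7 in most other classes. The sum of 12 such markers went from 48.7 to 96 CPM in mural-like cells, from 59.5 to 81.5 in fibroblast-like, from 98.5 to 178 in endothelial-like and from 67.2 to 166 in keratinocyte-like cells, against 6693 and 9708 CPM in T or NK-like cells. CD3G was at 0 in the fibroblast-like and mural-like cells of both grafts, and 11 of the 12 markers had a UMI. CD3G was also at 0 in the T or NK-like cells of the untreated graft, so nothing is read from its absence. In lymphatic endothelial-like cells the sum went from 194 to 766 CPM, in mast-like from 717 to 888, and in myeloid-like cells it was 3173 and 2949.9. In the lymphatic endothelial-like cells of the inhibitor graft, 7 of the 12 markers were at 0, CD3D, CD8A and CD4 among them. In mast-like cells of unwounded skin the sum was 587 CPM with NKG7 as the 1 marker above 0. The sums in these classes are therefore not read as RNA of T or NK cells. In B or plasma-like cells it went from 11.2 to 193 CPM, with 4 and 10 of the 12 markers above 0, and the sum of 12 fibroblast markers from 234 to 746 CPM. The sum of myeloid markers was 68.8 and 61.9 CPM in mural-like and 56.3 and 51.9 in fibroblast-like cells. The part of these markers in the class values was not tested.

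The share of cells with a PSMB9 UMI, after thinning each cell to 2000 UMIs, was 9.97%, 36.6%, 13.6%, 14.4% and 7.19% in mural-like cells, 4.82%, 17.6%, 1.22%, 1.72% and 0.408% in fibroblast-like cells and 34.4%, 50.1%, 30.8%, 31.7% and 34.9% in endothelial-like cells. Before thinning the mural-like shares at day 7 were 26.1% and 57.6%. No class was taken to lack PSMB9, so no background share from free RNA is set beside these values, and they are not read as shares of cells that express the gene. For PSMB7 the thinned shares at day 7 were 15% and 16.3% in mural-like and 15.5% and 15.7% in fibroblast-like cells, nearly equal between the grafts.

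At day 90 the ratios over all cells were smaller than at day 7 for 4 of the 5 inducible proteasome genes, PSME1 being the exception, and the peptide transporter led the members. Over all cells TAP1 rose 1.7-fold (1.64 to 1.77), TAP2 1.62-fold (1.54 to 1.71) and PSMB9 1.55-fold (1.49 to 1.61), and these 3 were the members past 1.5-fold. PSMB9 did not reach it with the mean of per-cell CPM, with ratios centred on the median gene or with equal weight to each class. The background was wider than at day 7, with 9.57% of 5478 genes higher and 5.15% lower, so 1 of 5 inducible proteasome genes past the rule is not read as a change of the group. PSMB8 reached 1.42-fold (1.37 to 1.47), PSME1 1.4-fold (1.3 to 1.5), PSME2 1.1-fold (1.06 to 1.15) and PSMB10 1.07-fold (1.02 to 1.13). B2M was at 1.45-fold and NLRC5, under the filter, at 1.79-fold (1.62 to 1.99). The median log2 ratio was 0.48 for the 5 inducible genes, -0.05 for the 33 other proteasome members that passed, 0 of which reached 1.5-fold, and 0.09 for all genes.

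Among the other proteasome members at day 90 the highest were PSMD9 at a log2 ratio of 0.23, PSMF1 at 0.20 and PSMD11, a 19S lid subunit, at 0.19. The lowest were PSMD8, a further lid subunit, at -0.39, PSMD14 at -0.31 and PSMA5 at -0.23. PSMB7 was 1.14-fold lower (1.09 to 1.19). Of the 33, 8 lay above 0, where 30 of 33 had done so at day 7; the sets differ by PSMF1, which passed the filter at day 90, and PSME3, which passed at day 7. Of the other pathway genes, IRF1, CXCL9 and CXCL10 were past 1.5-fold higher, and 0 of 15 supply genes were higher or lower.

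In the 3 largest classes at day 90 none of the inducible genes that passed the filter reached 1.5-fold. In mural-like cells TAP1 was 1.3-fold (1.16 to 1.45), TAP2 1.25-fold (1.08 to 1.45) and B2M 1.17-fold (1.15 to 1.19), the 3 highest members, and PSMB9 was at 67.5 and 74 CPM. None of the 5 inducible genes passed 1.5-fold there, against 2.17% of genes higher and 2.8% lower. The 1 member past 1.5-fold was PSMD14, 1.65-fold lower (1.42 to 1.93) with the inhibitor, followed by PSMB3 and PSMD8. Within cluster 14, with only 56 untreated and 53 inhibitor cells at day 90, PSMB9 went from 59.2 to 119.9 CPM, 2.03-fold, TAP1 was at 2.06-fold and HLA-DRA at 2.13-fold, whereas in clusters 13 and 16 PSMB9 was at 1.06-fold and 1.08-fold. In endothelial-like cells no inducible gene passed either, against 0.967% higher and 1.06% lower; NLRC5 was at 1.2-fold (1.06 to 1.37), TAP1 at 1.17-fold (1.11 to 1.22) and TAP2 at 1.11-fold (1.04 to 1.19), and PSMD14, PSMB7 and PSMB1 were lowest. In fibroblast-like cells 2 of the 5 passed the filter and 0 reached 1.5-fold, against 4.6% higher and 2.91% lower; B2M was highest at 1.29-fold (1.27 to 1.32), followed by PSME4 and PSMD9, and PSMA4, PSMA5 and PSMD6 were lowest. The 2 grafts lay in different clusters, with 61.9% of the untreated cells in cluster 25 and 76% of the inhibitor cells in cluster 1. PSMB8 was at 16.2 and 18.8 CPM within cluster 1 and at 3.87 and 2.79 CPM within cluster 25, and the log2 change of the immunoproteasome UMIs over the 12 constitutive 20S genes was 0.21 (0.02 to 0.40) and -0.01 (-0.24 to 0.23).

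PSME1 was the 1 inducible gene past 1.5-fold at day 90 in lymphatic endothelial-like cells, 2.19-fold (1.1 to 4.59), in T or NK-like cells, 1.75-fold (0.839 to 3.49), and in mast-like cells, 1.88-fold (0.665 to 5.71), and the last 2 intervals include 1. The backgrounds were 11%, 16.8% and 17.4% of genes higher and 14.9%, 15.9% and 9.55% lower, so 1 of 5 is not read as a change of the group. In lymphatic endothelial-like cells PSMD8, PSMA5 and PSMB2 were the lowest members, at 0.423-fold (0.309 to 0.573), 0.501-fold and 0.545-fold. In T or NK-like cells PSMG3 was highest and PSMC2, PSMB1 and PSMD14 lowest, and in mast-like cells PSME3 was highest and HLA-DRA, PSMB7 and PSMC3 lowest, on few cells. In myeloid-like cells TAP2 was at 1.5-fold (1.04 to 2.14) and PSMC6, PSMB3 and PSMC4 were lowest, with 6.85% of genes higher and 6.48% lower. The log2 change of the ratio to PSMB7 was 0.20 (0.03 to 0.38) in fibroblast-like, 0.47 (0.26 to 0.69) in mural-like, 0.31 (0.20 to 0.43) in endothelial-like and 0.01 (-0.50 to 0.53) in myeloid-like cells, each smaller than the 0.65 over all cells. PSMB7 itself was lower with the inhibitor in endothelial-like cells, at 0.823-fold (0.764 to 0.886), and in mural-like cells, by the levels given above. A lower PSMB7 raises this ratio. The changes in both classes are therefore not read as a rise of the inducible genes, none of which reached 1.5-fold there. Endothelial-like cells, with their high ratio, made up 22.7% of the untreated and 35% of the inhibitor graft at day 90, and fibroblast-like cells, with the lowest ratio in most libraries, 30.7% and 20.7%. With each class weighted equally the day 90 change over all cells was 0.26. The part of the class mix in the day 90 change was not tested.

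Against unwounded skin, genes of the 20S core had higher ratios in the day 7 grafts than genes of the 19S regulator. In the untreated graft 6 of 12 constitutive 20S genes rose, PSMA1, PSMA2, PSMA5 and PSMA7 of the alpha ring and PSMB2 and PSMB4 of the beta ring, against 15.8% of 5674 genes higher and 19.4% lower. Of the 18 genes of the 19S regulator 1 rose, PSMD8. The median log2 ratios were 0.63 for the 20S genes, 0.02 for the 19S genes and -0.05 for all genes. In the inhibitor graft 11 of 12 20S genes rose, with PSMB7 at 0.56 the exception, against 19.1% of 5581 genes higher and 25.2% lower, and so did 3 of 18 19S genes, PSMD8, PSMD12 and PSMD14. Its medians were 0.91 and 0.19, with -0.09 for all genes. Both comparisons share the unwounded library, which is the smallest. They run over all cells, and the mix of classes differed. Endothelial-like cells made up 34.2% of unwounded skin and 18.2% and 13% of the untreated and inhibitor grafts at day 7. For T or NK-like cells the shares were 1.49%, 12.7% and 21.9%. The part of this mix in these values, and in those of the inducible and class I genes below, was not tested.

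PSMA7, a subunit of the alpha ring, was at 406, 477, 281, 274 and 244 CPM. PSMB2 was at 272, 364, 182, 174 and 149.5 CPM and PSMA5 at 86, 109.9, 59, 50.1 and 47.6 CPM. For these 3 genes both day 7 libraries lay above all other libraries. PSMD2 went from 93.9 and 81.5 at day 7 to 104 and 91.9 at day 90 and 87.5 CPM in unwounded skin, and PSMC3, an ATPase of the 19S base, was at 110.2, 132, 142, 140.0 and 124 CPM, so these 19S genes did not follow the core. PSMG4, a chaperone that helps assemble the 20S ring, was at 156, 176, 109.5, 98.6 and 91.7 CPM and rose against unwounded skin in the untreated graft at day 7, 1.7-fold (1.61 to 1.79). PSMF1, the inhibitor, was at 15.1, 21.2, 19.6, 22.4 and 29.8 CPM and fell in that comparison, 1.97-fold lower (1.77 to 2.19).

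**Figure D4:**
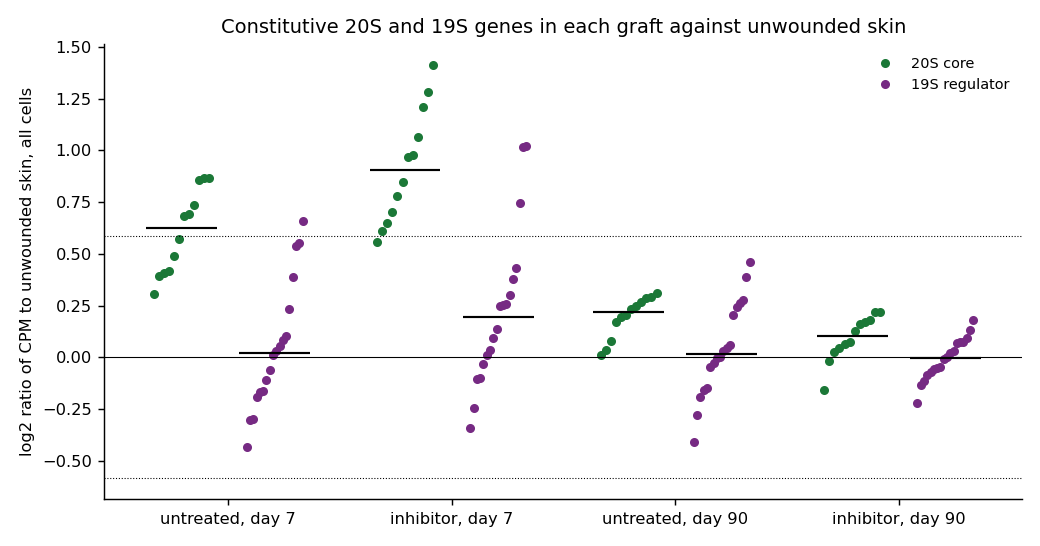
Log2 ratio of CPM of each graft to unwounded skin, over all cells, for the constitutive 20S genes (green, 12 genes) and the 19S genes that passed the filter (purple), ordered by value within a column, with black bars at the medians and dotted lines at 1.5-fold. At day 7 the 20S genes lie above 0 in both grafts and above the 19S median, and by day 90 both groups lie near 0.

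The inducible genes took another course. Against unwounded skin 0 of 5 rose in the untreated graft at day 7, with a median log2 ratio of 0.20, and 4 of 5 rose in the inhibitor graft, with a median of 1.13. The class I genes were below unwounded skin in the untreated graft at day 7, where TAP2 fell by 1.06, TAP1 by 1 and B2M by 0.78 on the log2 scale. At day 90 the untreated graft was lower than unwounded skin in TAP1, TAP2, B2M, PSMF1 and PSME1, against 10.3% of genes higher and 19.9% lower, while in the inhibitor graft PSME1 alone had fallen, against 4% and 5.71%. Without the shared barcodes the count in the untreated graft at day 90 was 4 in place of 5. PSME1, which had not been lower in the untreated graft at day 7, was 2.61-fold lower (2.42 to 2.82) in the untreated and 1.87-fold lower (1.73 to 2.03) in the inhibitor graft at day 90. No constitutive 20S gene passed 1.5-fold at day 90, with medians of 0.22 and 0.10.

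Between the days, the inhibitor grafts differed in more members than the untreated ones. From day 7 to day 90 all 5 inducible genes and 11 of 12 constitutive 20S genes fell in the inhibitor grafts, with a 20S median of -0.79, while B2M rose. The background there was 20.3% higher and 17.7% lower, and 20 members in all fell. In the untreated grafts PSME1, PSMB9 and PSMD12, a 19S lid subunit, fell, against 9.31% higher and 14.2% lower, and 0 of 12 20S genes passed, with a median of -0.44. PSME1 was 2.75-fold lower (2.6 to 2.91) at day 90 in the untreated grafts. In each of these comparisons a day is also a different library, and whether the same animals stand behind both days is not given, so day and animal cannot be told apart.

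Keratinocyte-like cells showed the widest span of the immunoproteasome ratio against unwounded skin. Their ratio to PSMB7 was 0.287 in unwounded skin. At day 7 it was 2.06 untreated and 3.86 with the inhibitor, and at day 90 it was 0.5 with the inhibitor. That is 7.19-fold and 13.4-fold above unwounded skin at day 7 and 1.74-fold at day 90. Fibroblast-like cells of the untreated graft at day 7 had 1.08 against 0.787 in unwounded skin. Mural-like cells had 1.86 against 2.42 and endothelial-like cells 5.15 against 7.21, so both ratios lay below unwounded skin. The log2 changes of the ratio in these classes were -0.38 (-0.72 to -0.04) and -0.48 (-0.66 to -0.31). In both classes PSMB7 was higher in the graft than in unwounded skin. By the levels given above, PSMB8 was lower and PSMB9 higher in the graft, so the lower ratios are not read as less RNA of the inducible genes. In mast-like cells the change was -0.16 (-1.59 to 1.13), an interval that includes 0.

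HLA-DRA, the class II alpha chain, was at 1224, 975, 1016, 1114 and 1027 CPM over all cells and did not pass 1.5-fold between treatments on either day (1.26-fold lower with the inhibitor at day 7). Myeloid-like cells, the named class with its highest level, made up 6.53% of the untreated and 2.92% of the inhibitor graft at day 7. At day 90 they made up 5.27% and 1.52%, and within them HLA-DRA was at 1.11-fold at day 7. Unnamed cluster 4 had a higher level, 15577 CPM on 248 untreated and 13760 CPM on 345 inhibitor cells at day 7. The part of these cell numbers in the values over all cells was not tested. Within other classes HLA-DRA differed more. Mural-like cells had 37.9, 159, 104, 99.6 and 30.5 CPM, a rise of 4.2-fold (3.79 to 4.66) at day 7. Their clusters differed, with 42.3 and 234 CPM in cluster 14 (5.53-fold), 2.5-fold in cluster 13, and 25.4 and 35 CPM in cluster 16 (1.38-fold). Both day 90 grafts lay between the day 7 libraries, and unwounded skin was lowest. CIITA, the switch factor of class II genes, gave 5, 170, 5, 10 and 1 UMIs in the same cells, 20.6-fold (8.67 to 64.3) at day 7, below the filter on low values. In lymphatic endothelial-like cells HLA-DRA rose 4.48-fold (3.12 to 6.6) at day 7 and 2.7-fold (1.93 to 3.84) at day 90, from 63 and 75.1 CPM in the untreated grafts. T or NK-like cells went from 456 to 1016 CPM at day 7, 2.23-fold (2.09 to 2.38).

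Endothelial-like cells had 1317, 1734, 1765, 1844 and 1737 CPM of HLA-DRA, high in every library, and 141, 229, 382, 426 and 155 CIITA UMIs. Their HLA-DRA ratio at day 7 was 1.32-fold (1.29 to 1.35). Of the named classes, myeloid-like cells had the highest level, 5162, 5751, 8594 and 9686 CPM in the 4 grafts, with little difference between treatments. Fibroblast-like cells had 15.5, 29.3, 9.65, 13.8 and 14.2 CPM, 1.88-fold (1.55 to 2.29) at day 7, where their mean was just above 20 CPM. Their clusters went opposite ways, from 12.8 to 31.1 CPM in cluster 15 and from 27.1 to 21.8 CPM in cluster 1. HLA-DRA in keratinocyte-like cells was at 12.7, 16.8, 4.45 and 4.01 CPM in the libraries with at least 50 of them. In mast-like cells the gene fell at day 7, from 55.1 to 17.2 CPM. Of the 8 measured genes of class II processing, 2 of 8 that passed fell over all cells at day 7, the lysosomal proteases CTSB and CTSS, against 3.98% of all genes lower. At day 90 3 of 8 fell, the proteases CTSL and CTSS and the lysosomal thiol reductase IFI30, against 5.15%. The part of the lower share of myeloid-like cells in these values was not tested.

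Free RNA from lysed cells gives UMIs in droplets whose cell lacks the gene, so the mural-like share was set beside that of keratinocyte-like cells, which are not known for class II without stimulation. After thinning to 2000 UMIs, 4.98% (3.93 to 6.22) and 13.2% (11.8 to 14.7) of mural-like cells had an HLA-DRA UMI in the untreated and inhibitor grafts at day 7, and 3.04% (1.63 to 5.14) and 4.36% (2.34 to 7.34) of keratinocyte-like cells. Unthinned, the shares were 13% and 21.3% in mural-like cells, at median depths of 5457 and 6575 UMIs, and 12.5% and 13.5% in keratinocyte-like cells, at 12363 and 13093 UMIs. The untreated mural-like share thus lay within the interval of the keratinocyte-like share, and the inhibitor share lay above it. The fibroblast-like shares, 1.64% and 3.27%, lay at or below the keratinocyte-like ones in both grafts and are not read as expression. Keratinocyte-like cells had far more PSMB9 at day 7 than in unwounded skin, as given above. Whether their HLA-DRA share comes from free RNA alone was not tested. It is therefore not known whether the untreated mural-like share lies above free RNA. Over all libraries the share in mural-like cells was 4.98%, 13.2%, 11.7%, 8.7% and 2.4%.

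The row that the symbol table names CD74 had 4619, 4305, 4489.9, 5619.6 and 5684 CPM over all cells and was high in every class, 2923, 2808, 2075, 1844 and 1501 CPM in fibroblast-like, 4115, 3649, 5231 and 4369 in keratinocyte-like (without the untreated graft at day 90) and 8528, 9673, 14424 and 14235 in myeloid-like cells of the 4 grafts. HLA-DRA UMIs per 100 of this row were 60.5, 59.5, 59.6 and 68 in myeloid-like cells, 25.8, 28.9, 23.5, 22.3 and 21.6 in endothelial-like, 1.28, 5.63, 2.92, 2.63 and 0.92 in mural-like and 0.532, 1.04, 0.465, 0.749 and 0.943 in fibroblast-like cells. The neighbour of CD74 in the RefSeq annotation of Sscrofa11.1 is RPS14, a ribosomal protein gene that every cell uses, and no row of the files carries that symbol. Whether UMIs of RPS14 were counted in this row was not tested, and the row is therefore reported as uncertain and given no direction.

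**Figure D5:**
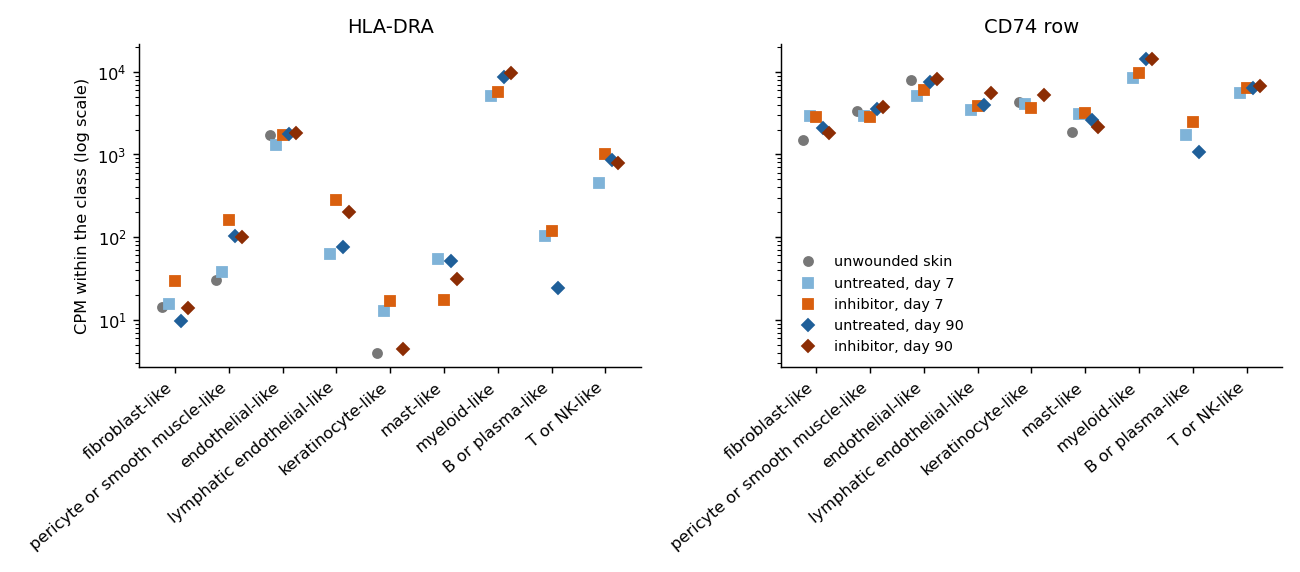
CPM of HLA-DRA (left) and of the row named CD74 (right) by class and library, on 1 common log axis, for classes with at least 50 cells in the library; a level of 0 is not drawn. HLA-DRA spans from a few CPM in keratinocyte-like cells to its highest drawn levels in myeloid-like cells. It is higher with the inhibitor at day 7 in mural-like and lymphatic endothelial-like cells, whereas the CD74 row is high in all classes. Unnamed clusters are not drawn.

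Across the 39 class and library sums the inducible genes were correlated, though less closely than the constitutive 20S genes. The correlation of log2 levels had a median of 0.648 over the pairs of PSMB8, PSMB9, PSMB10 and TAP1, with a range of 0.459 to 0.914. Over the pairs of the 12 constitutive 20S genes the median was 0.836. Between the groups it was 0.552, with a range of 0.081 to 0.864 that largely overlaps that of the inducible pairs. PSMB9 was most like PSMB8 (r = 0.914), then PSME2 (0.881), and its correlation with TAP1 was 0.780. These sums share libraries, cell classes and depth, so the values are a description.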

How the data were processed

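Single-cell RNA of 5 libraries was measured with a 10x 3-prime kit, per the labels. The authors' deposited matrices hold UMI counts per gene and barcode from Cell Ranger, per the submitters' processing notes; the software version is 3.1.0 per the file headers, and the genome build is not given in the sources used here. Each deposited barcode had 500 or more UMIs. Members and lists were chosen with earlier results of these data known.

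Barcodes with under 500 genes, or with over 25% of their UMIs on the 13 mitochondrial genes, were dropped. Scrublet's own threshold marked 0, 0, 83, 3 and 5 cells, too few in the day 7 libraries to have worked, so the top-scoring 524, 700, 255, 116 and 19 cells were removed, an expected rate of 0.8% per 1000 cells. Clustering used 2000 variable genes without the members, 30 principal components, 20 neighbours and Leiden resolution 1. A cluster was named from 16 marker lists (140 of 160 genes measured) if its marker score reached 0.8 and led the next class by 0.5, and if 3 or more of the markers, and 50% or more of those measured, were raised 1.5-fold. UMI counts were summed per class and library and scaled to CPM. Intervals are exact (Poisson for CPM, conditional binomial for ratios, Clopper-Pearson for shares) at 95%, and the depth limits each to counting error. Symbols missing from the files (670) came from a symbol table, and 4942 identifiers had none. Neighbouring genes were read from RefSeq's Sscrofa11.1 table, used for names only. No deposited sequence or genome was used.

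Named were the inducible, catalytic and antigen processing members, any other member past 1.5-fold between treatments, and the 3 highest and 3 lowest members over all cells and in each class. 1 gene, and the counts over the 2 pathway lists that hold it, are not reported here. The intervals of CPM ratios were tested on simulated independent Poisson counts, the kind of error they assume. That test cannot speak to spread between cells or animals, and it did not cover the other intervals. With PSMB5 and PSMB6 unmatched, PSMB7 alone served as the constitutive catalytic gene, and PSMB10 to PSMB7 was the 1 pair of counterparts. Clustering ran in Scanpy 1.11.5 with igraph 0.11.9 and scikit-learn 1.9.0, tables and intervals in pandas 2.3.3, SciPy 1.17.1 and NumPy 2.4.6, and plots in Matplotlib 3.10.9, under Python 3.11.15.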

Additional observations from a re-analysis of the deposited data

Results flagged for a closer look

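The day 7 and day 90 treatment ratios of 2 genes of the 19S regulator over all cells had opposite signs. PSMD14, the enzyme that removes ubiquitin chains at the proteasome, had a log2 ratio of inhibitor to untreated graft of 0.48 at day 7 and -0.31 at day 90. PSMD8, a subunit of the 19S lid, had 0.36 at day 7 and -0.39 at day 90. None of these 4 values reached 1.5-fold, each rests on 1 library per group, and the difference between the days was not tested.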

How the results depend on the processing

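No paired analysis was possible because each group is 1 library. At day 7 the count of inducible genes past 1.5-fold (4) and at both days that of other proteasome genes (0) were the same under every alternative run, 9 at day 7 and 10 at day 90. The day 90 count of inducible genes went from 1 to 0 with the mean of per-cell CPM, with ratios centred on the median gene and with equal weight to each class. The log2 change of the ratio to PSMB7 kept its sign at day 7 in all cells and in all 9 classes under every alternative run. With the mean of per-cell CPM it moved at day 7 to 1.03 over all cells, 0.64 in endothelial-like and 1.15 in keratinocyte-like cells, and to 0.40 over all cells at day 90. With PSMB10 to PSMB7, the 1 measured pair of counterparts, it moved at day 7 to 0.75 over all cells, 1.12 in fibroblast-like, 0.97 in lymphatic endothelial-like, 0.55 in keratinocyte-like and 0.89 in mast-like cells, and at day 90 to 0.29 over all cells, 0.24 in mural-like and -0.14 in fibroblast-like cells, where the sign turned. With the 12 constitutive 20S genes it moved at day 7 to 0.80 over all cells, 1.39 in fibroblast-like, 1.81 in mural-like, 0.65 in endothelial-like, 0.58 in myeloid-like and, inside its wide interval, 0.59 in B or plasma-like cells (1.21 with PSMB7), and to 0.55 over all cells at day 90. The fibroblast-like value at day 7 (1.72) moved to 1.06 with every deposited barcode, 1.94 with doublets kept, 0.97 with each library clustered alone, 1.23 at resolution 0.5 and 1.28 with cluster 0 counted in, and at day 90 (0.20) to 0.48, 0.51 and 0.49 with every barcode, resolution 0.5 and cluster 0. With each library clustered alone the myeloid-like value was 1.15 at day 7 and the endothelial-like value 0.47 at day 90. Equal weight to each shared cluster gave 1.84 at day 7 and 0.69 at day 90 in mural-like cells, and equal weight to each class 0.26 over all cells at day 90. At day 90 the sign also turned under at least 1 alternative in T or NK-like, mast-like and myeloid-like cells, whose lowest values were -0.04, -0.28 and -0.11. The share of cells with an HLA-DRA UMI, thinned to 1000 UMIs, was 63.5% and 63.6% in endothelial-like and 3.03% and 9.06% in mural-like cells at day 7. The denominators of 12 genes, the removal of shared barcodes and the counting of cluster 0 as fibroblast-like were chosen after seeing the data. The causes of these moves were not tested. T or NK-like and mast-like classes hold few UMIs of PSMB7 at day 90, where intervals are wide.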
